A study of Mus musculus with 8 samples.

Results

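The keratins described here are 4 keratins of simple epithelia, Krt7, Krt8, Krt18 and Krt19, and Krt42, a keratin of another expression pattern. The 5 genes were chosen by their symbols, with their counts and their changes between differentiation states already known, and they are 5 of the 24421 genes listed in the count tables. The files name 47 other keratins. R1 mouse embryonic stem cells (ESCs) were compared before differentiation (Undiff, cells kept in ES growth medium) and after it (Day4, embryoid bodies grown for 4 days and then given 2 µM retinoic acid, RA, for another 4 days), although the labels give embryoid bodies as the tissue of both states. The treatment label states the RA dose in mM, and the series design and the methods state it in µM. Poly(A) RNA was read by nanopores (Oxford Nanopore Technologies, ONT) using the Direct RNA kit, in which the RNA strand itself is read (500 ng of RNA), and with the cDNA kit, in which it is first copied and amplified by PCR (50 ng). Each of the 4 groups had 2 biological replicates, and R1 is a single ESC line.

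Keratins are intermediate filament proteins that assemble as obligate pairs of a type I and a type II chain. Krt7 and Krt8 are type II chains, and Krt18, Krt19 and Krt42 are type I chains. Krt8 and Krt18 are the usual partners in simple epithelia and are among the first keratins of the mouse embryo, where they appear in trophectoderm and endoderm. Krt7 and Krt19 accompany them in ducts, glands and extraembryonic epithelia, and Krt19 is the smallest keratin, almost without a tail domain. Krt42 is known from the nail unit, and it lies among epidermal type I keratins. Excess single chains are degraded, so that the protein of one type depends on the presence of the other. RA acts through nuclear receptors that bind DNA at repeats of a short half-site.

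In the GENCODE annotation of GRCm38, Krt8 (chr15:101996698-102004482, minus strand, 9 exons) and Krt18 (chr15:102028180-102032027, plus strand, 7 exons) are neighbours whose ends lie 23697 bases apart. Krt18 is thus the type I gene that sits in the type II cluster. Krt7 (chr15:101411043-101430313, plus strand, 9 exons) is in the same cluster. The other 2 type I genes are in the cluster of chromosome 11, Krt19 at chr11:100140810-100148665 (minus strand, 6 exons) and Krt42 at chr11:100262882-100269871 (minus strand, 8 exons), with 114216 bases between them. All 5 are annotated as protein-coding.

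The promoter sequences of Krt8, Krt18 and Krt42 are shown because these 3 genes hold the half-site in question, while they changed in opposite directions between the states. They come from RefSeq on GRCm38.p6, are read on the strand of the gene and end before the start of transcription. Capitals mark the nuclear receptor half-site AGGTCA.
Krt8: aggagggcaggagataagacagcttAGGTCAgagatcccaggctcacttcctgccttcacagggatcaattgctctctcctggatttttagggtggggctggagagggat
Krt18: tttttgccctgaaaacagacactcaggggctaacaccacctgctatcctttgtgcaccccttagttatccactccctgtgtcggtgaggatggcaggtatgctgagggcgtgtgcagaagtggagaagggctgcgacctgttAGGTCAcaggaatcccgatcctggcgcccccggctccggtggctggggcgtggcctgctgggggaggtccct
Krt42: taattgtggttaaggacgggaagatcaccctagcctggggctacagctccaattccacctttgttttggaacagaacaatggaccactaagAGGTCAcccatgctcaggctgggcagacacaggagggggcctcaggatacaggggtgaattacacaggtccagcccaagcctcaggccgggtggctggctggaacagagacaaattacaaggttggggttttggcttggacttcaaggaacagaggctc
The Krt8 sequence is chr15:102004483-102004592, that of Krt18 is chr15:102027966-102028179 and that of Krt42 is chr11:100269952-100270201. Searched on both strands in the 250 bases before the RefSeq start, AGGTCA began 225 bases upstream in Krt8, 108 in Krt18 and 159 in Krt42, once in each. The printed stretches of Krt8 and Krt18 stop at the GENCODE start, which lies before the RefSeq start, so the site stands nearer to their ends than these distances. It was present in 14% of 32851 mouse promoters. Krt7 had none, and held the GC box GGGCGG 4 times, at 141, 128, 56 and 24 bases upstream, the last 2 on the opposite strand. The GC box was present in 32.7% of promoters and in none of those of Krt8, Krt18 and Krt42. The AP-1 site TGANTCA, present in 6.75% of promoters, was found in none of the 4. The promoter of Krt19 was not analysed here. A match of letters is a description and no evidence of binding.

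Levels are given as reads and as CPM, reads per 1e6 reads on genes. Direct RNA libraries held 283461 to 907489 reads on genes, cDNA libraries 948657 to 2088592, and 3 reads, the floor used here, correspond to between 1.44 and 10.6 CPM. In Undiff Direct RNA the 5 keratins together had 76 and 324 reads (218 and 357 CPM) and in Undiff cDNA 272 and 899 reads (287 and 430 CPM). At Day4 they had 223 and 559 reads (787 and 758 CPM) in Direct RNA and 883 and 1636 reads (670 and 788 CPM) in cDNA. Their summed level was therefore higher in every Day4 library than in every Undiff library. They supplied between 73.7% and 95.7% of all keratin reads of a library. Because these are bulk samples, fewer cells that express a gene and less RNA per cell cannot be told apart.

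Krt18, the type I partner of Krt8, had 21 and 66 reads in Undiff Direct RNA and 74 and 238 at Day4, and 153 and 350 reads in Undiff cDNA and 464 and 1198 at Day4. In Direct RNA its level was 66.5 ± 8.81 CPM in Undiff (mean ± SD, n = 2) and 292 ± 43.6 CPM at Day4, a 4.39-fold difference. In cDNA the means were 164 ± 4.45 and 464 ± 159 CPM, a 2.82-fold difference. On both platforms the 2 states did not overlap. Here and below, the share of all genes that separate in this way was not computed, so a lack of overlap is a description only. As the state changes of these genes were known when they were chosen, they are given as a description with no test.

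Krt8, the type II partner, had 17 and 78 reads in Undiff Direct RNA and 44 and 172 at Day4, and 9 and 53 reads in Undiff cDNA and 63 and 114 at Day4. The means were 67.4 ± 26.3 and 194 ± 55.1 CPM in Direct RNA (2.88-fold) and 17.4 ± 11.2 and 51.3 ± 5.01 CPM in cDNA (2.94-fold). The Day4 libraries were again above the Undiff libraries on each platform, while the cDNA libraries, at 9.49 to 54.9 CPM, lay below or close to the lowest Direct RNA library (48.8 CPM).

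Krt19 had the highest increase of the 5, although in Direct RNA this rank rested on Day4 replicate 1. It was counted with 12 and 42 reads in Undiff Direct RNA and 96 and 132 at Day4, and with 11 and 27 reads in Undiff cDNA and 336 and 246 at Day4. The means were 40.4 ± 8.37 and 259 ± 113 CPM in Direct RNA (6.41-fold) and 12.3 ± 0.942 and 187 ± 96.5 CPM in cDNA (15.2-fold). States did not overlap, but the Day4 replicates were far apart on both platforms, at 339 and 179 CPM in Direct RNA and at 255 and 118 CPM in cDNA.

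Krt7, a type II keratin of ducts and glands, was the least changed. It had 8 and 10 reads in Undiff Direct RNA and 9 and 17 at Day4, and 11 and 34 reads in Undiff cDNA and 19 and 77 at Day4. The means were 17.0 ± 8.44 and 27.4 ± 6.15 CPM in Direct RNA and 13.9 ± 3.31 and 25.7 ± 16.0 CPM in cDNA. The states overlapped in cDNA, where Day4 replicate 1 (14.4 CPM) was below Undiff replicate 2 (16.3 CPM). In Direct RNA the highest Undiff and the lowest Day4 library were both at 23.0 CPM.

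Krt42 went the other way. It had 18 and 128 reads in Undiff Direct RNA (51.7 and 141 CPM) and 88 and 435 reads in Undiff cDNA (92.8 and 208 CPM). At Day4 it had 0 reads in both Direct RNA libraries, which allows up to 10.6 CPM in replicate 1 and 4.07 CPM in replicate 2, and 1 read in each cDNA library. Over the pooled reads of a group it was at least 39.6-fold lower at Day4 in Direct RNA, with the floor of 3 reads set over both Day4 libraries. In cDNA the pooled level was 292-fold lower (95% exact interval of the counts 80.5 to 2420). Replicate 2 was above replicate 1 on both platforms in Undiff. Intervals and floors cover counting error only and leave out the spread between replicates. In cDNA, moreover, PCR copies are not independent molecules.

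**Figure D1:**
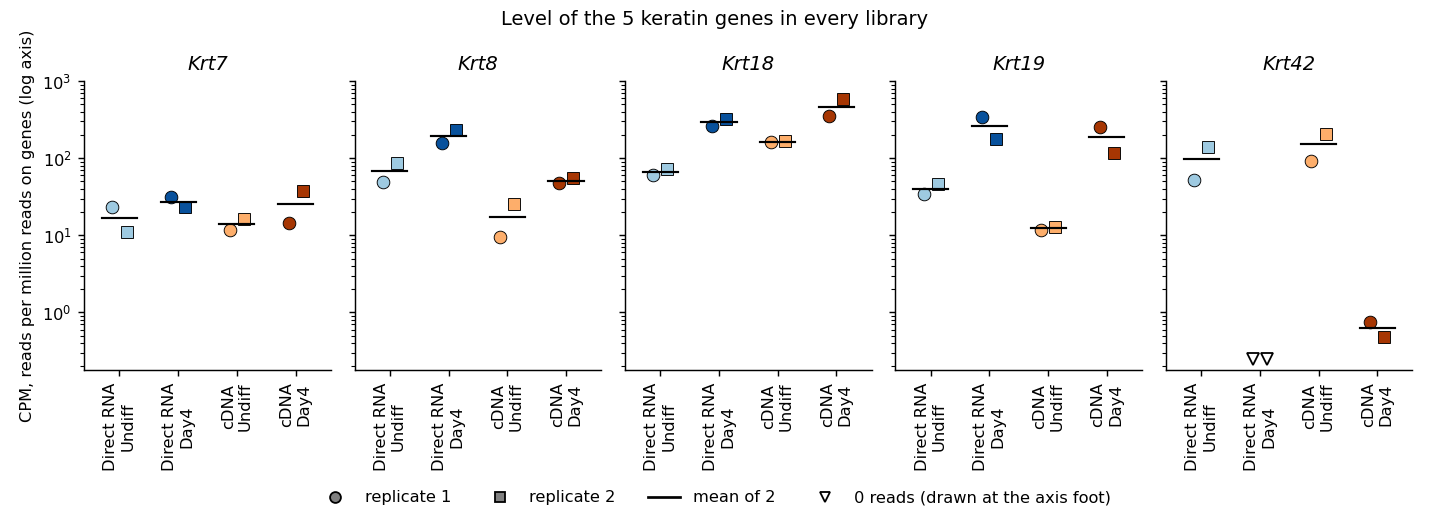
Level of Krt7, Krt8, Krt18, Krt19 and Krt42 in each of the 8 libraries, in CPM on a log axis. Circles are replicate 1, squares replicate 2, lines the mean of the 2, and open triangles libraries with 0 reads, which are drawn at the foot of the axis. Krt8, Krt18 and Krt19 are higher in the Day4 libraries on both platforms, and Krt42 is at 0 or 1 read in all Day4 libraries.

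The fits across all genes, made for each platform alone and expressed as shrunken log2 fold changes of DESeq2 (Day4 minus Undiff), gave the same order on either platform at its ends. The Krt19 value was 2.44 ± 0.48 (SE) in Direct RNA and 3.52 ± 0.56 in cDNA. For Krt18 it was 1.97 ± 0.41 and 1.13 ± 0.39, for Krt8 1.35 ± 0.48 and 1.16 ± 0.60, and for Krt7 0.57 ± 0.87 and 0.50 ± 0.70. The Krt42 values were -6.24 ± 1.14 and -7.46 ± 0.86. With 0 or 1 read at Day4 the fitted size for Krt42 depends on the shrinkage and is no bound. The median over all genes tested was 0.03 in Direct RNA and 0.00 in cDNA. With total reads on genes as the scaling these medians were 0.13 and 0.33, and each keratin kept its sign, with cDNA values of 0.83 for Krt7, 1.45 for Krt8, 1.47 for Krt18, 3.79 for Krt19 and -7.14 for Krt42. Single libraries decided some sizes. In Direct RNA without Undiff replicate 2, the Krt7 value was 0.12 and the Krt42 value -4.73. Without Day4 replicate 1 on that platform, Krt19 (1.95) was below Krt18 (2.13). In cDNA the Krt7 value was -0.11 without Day4 replicate 2, and the Krt19 value 2.69 without Day4 replicate 1. The Krt8 value in cDNA was 0.65 without Undiff replicate 1 and 1.87 without Undiff replicate 2.

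**Figure D2:**
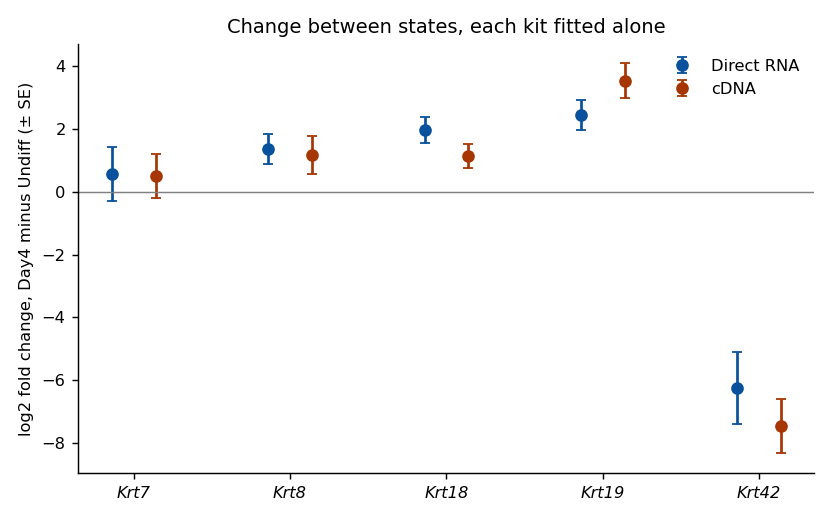
Shrunken log2 fold change between the states (Day4 minus Undiff) of the 5 keratin genes, with bars of 1 SE, fitted in Direct RNA alone (blue) and in cDNA alone (brown), 2 libraries per state. Values of Krt8, Krt18 and Krt19 lie between 1.13 and 3.52, those of Krt7 within 1 SE of 0, and those of Krt42 at -6.24 and -7.46.

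To compare the genes with each other, CPM were divided by the length of the longest annotated transcript, from 1437 bases (Krt18) to 4094 bases (Krt7). Long reads can span a whole transcript, so that counts need not rise with length. In Undiff Direct RNA the mean level per kb was 62.5 for Krt42, 46.3 for Krt18, 34.4 for Krt8, 25.6 for Krt19 and 4.15 for Krt7. Each of the first 3 overlapped the next in its replicates, and Krt7 stood apart from Krt19. In Undiff cDNA the level per kb was 114 for Krt18 and 97.6 for Krt42, which overlapped, and then 8.90 for Krt8, 7.78 for Krt19, which also overlapped, and 3.40 for Krt7. At Day4 the order of the level per kb was Krt18, Krt19, Krt8, Krt7 and Krt42 on both platforms. The means per kb were 203, 164, 99.2, 6.69 and 0 in Direct RNA, where Krt18 overlapped Krt19 and Krt19 overlapped Krt8. They were 323, 118, 26.2, 6.29 and 0.402 in cDNA, where no neighbours overlapped. The long Krt7 transcript has a coding length of 1371 bases, and per kb of coding length Krt7 (10.2) and Krt19 (10.1) changed places in Undiff cDNA. In CPM without division, Krt7 (13.9) was also above Krt19 (12.3) there, and Krt8 (67.4) was above Krt18 (66.5) in Undiff Direct RNA. The order at Day4 was the same in CPM on both platforms.

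As a share of the reads on the 5 genes, which does not depend on the depth of a library, Krt42 took 23.7% and 39.5% in Undiff Direct RNA and 32.4% and 48.4% in Undiff cDNA. At Day4 Krt42 took at most 0.113%, and Krt18 and Krt19 together took most of the reads in each library. The Krt19 share went from 15.8% and 13.0% to 43.0% and 23.6% in Direct RNA and from 4.04% and 3.0% to 38.1% and 15.0% in cDNA. On both platforms Day4 replicate 1 had the larger Krt19 share and Day4 replicate 2 the larger Krt18 share (42.6% against 33.2% in Direct RNA, 73.2% against 52.5% in cDNA). Whether libraries of the same number came from one culture is not given in the labels.

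**Figure D3:**
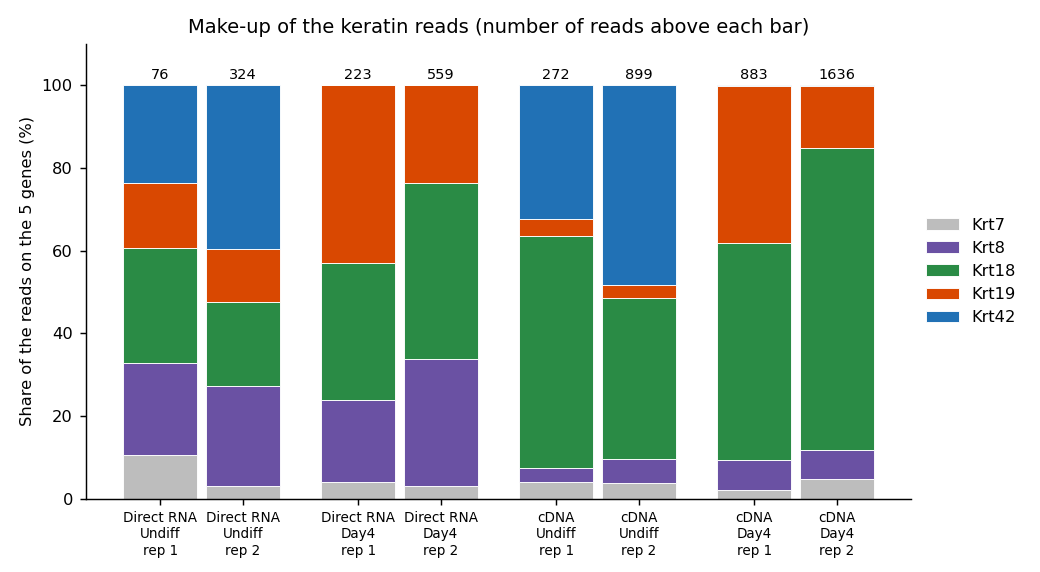
Share of each gene in the reads on the 5 keratins, in percent, for each of the 8 libraries, with the number of reads above each bar. Krt42 (blue) takes between 23.7% and 48.4% in Undiff and is at most 0.113% at Day4, and Krt8 (purple) takes 19.7% to 30.8% in Direct RNA, against 3.31% to 7.13% in cDNA.

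The platforms differed in how they shared the reads between Krt8 and Krt18, although both genes were higher at Day4 with either kit. In Direct RNA, Krt8 had 44.7% (95% Wilson interval 30.1 to 60.3) and 54.2% (46.0 to 62.1) of the reads of the pair in Undiff and 37.3% (29.1 to 46.3) and 42.0% (37.3 to 46.8) at Day4. In cDNA it had 5.56% (2.95 to 10.2) and 13.2% (10.2 to 16.8) in Undiff and 12.0% (9.46 to 15.0) and 8.69% (7.28 to 10.3) at Day4. The lowest Direct RNA library was thus above the highest cDNA library, and their intervals did not overlap. There were 0.846 to 1.68 reads on Krt18 for each read on Krt8 in Direct RNA, and 6.60 to 17.0 in cDNA. The type II share of the reads on all 5 genes was 23.8% to 33.8% in Direct RNA libraries, against 7.35% to 11.7% with cDNA.

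**Figure D4:**
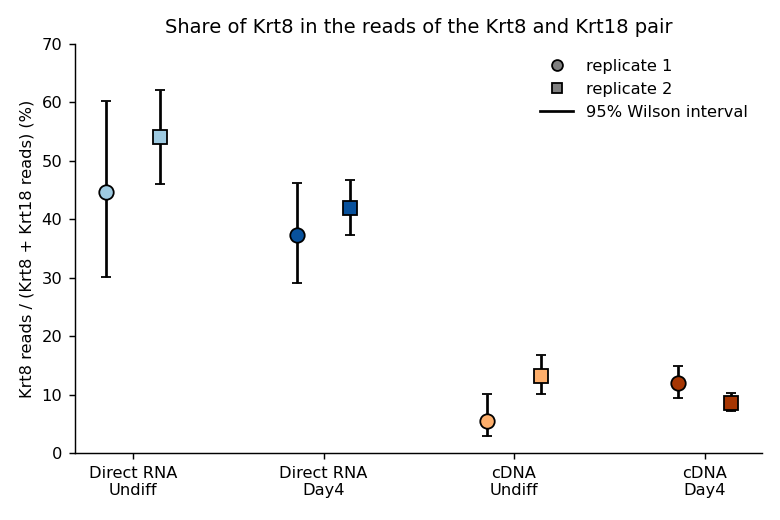
Krt8 reads as a percentage of the reads on Krt8 and Krt18 in each library, with 95% Wilson intervals. Circles are replicate 1 and squares replicate 2. The 4 Direct RNA libraries lie between 37.3% and 54.2% and the 4 cDNA libraries between 5.56% and 13.2%.

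The rule by which the genes were chosen does not name the platform difference, although the counts of all libraries were known. The difference was tested with DESeq2 over all genes, with state as a covariate and 4 libraries against 4. Of all genes tested, 24.7% were called higher and 26.6% lower in cDNA, so that calls were common. Of the keratins, Krt18 and Krt42 were called higher and Krt8 lower in cDNA. The log2 fold change (cDNA minus Direct RNA) was 1.65 for Krt18 (95% interval 1.15 to 2.15, adjusted p = 1.58e-09), 1.29 for Krt42 (0.25 to 2.33, adjusted p = 0.0417) and -1.20 for Krt8 (-1.83 to -0.56, adjusted p = 0.000967). Krt7 (0.60, interval -0.24 to 1.44, adjusted p = 0.317) and Krt19 (-0.23, interval -1.02 to 0.55, adjusted p = 0.805) did not pass the test, and these intervals leave room for differences of over 1 on the log2 scale in one direction.

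These values are relative to the typical gene, and the scaling mattered. With the total reads on genes in place of the size factors of DESeq2, the median gene was 0.77 lower in cDNA on the log2 scale, against 0.02 lower with the size factors, and the share of calls that were higher went from 48.1% to 20.5%. Under that scaling Krt8 was at -1.90 (adjusted p = 5.60e-08) and was still called. Krt18 was at 0.94 (adjusted p = 0.000790), below the fold required for a call, and Krt42 was at 0.54 (adjusted p = 0.535) and no longer called. The Krt7 value turned from 0.60 to -0.09, and that of Krt19 went from -0.23 to -0.97 (adjusted p = 0.0304), just below the fold required for a call. In CPM, Krt18 was 2.47-fold higher in cDNA in Undiff and 1.59-fold at Day4, and Krt8 3.86-fold and 3.78-fold lower, without overlap of the platforms within either state. In CPM, Krt19 was 3.29-fold lower in cDNA in Undiff without overlap, and the platforms overlapped at Day4. The platforms overlapped for Krt42 in Undiff, and for Day4, at 0 and 1 reads, no fold is given.

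Within Undiff alone, with 2 libraries a platform, only Krt18 was called of the 5 (log2 fold change 2.07, adjusted p = 3.50e-05). Krt42 was at 1.33 (adjusted p = 0.0563) and Krt8 at -1.07 (adjusted p = 0.314). Within Day4 alone Krt18 was called as well (1.35, adjusted p = 0.00440), and Krt8 was at -1.15 (adjusted p = 0.0625). With total reads as the scaling, both Krt8 (-1.81, adjusted p = 0.0278) and Krt18 (1.26, adjusted p = 0.0253) were called in Undiff alone. In Day4 alone under that scaling Krt8 was called (-1.88, adjusted p = 0.000252) and Krt18 was not (0.65, adjusted p = 0.258). The calls of Krt18 and Krt8 over all libraries held without each library in turn. That of Krt42 was lost without Direct RNA Undiff replicate 1 (0.84, adjusted p = 0.267), without cDNA Undiff replicate 2 (0.77, adjusted p = 0.450) and without either Direct RNA Day4 library (adjusted p = 0.0535 and 0.0695).

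**Figure D5:**
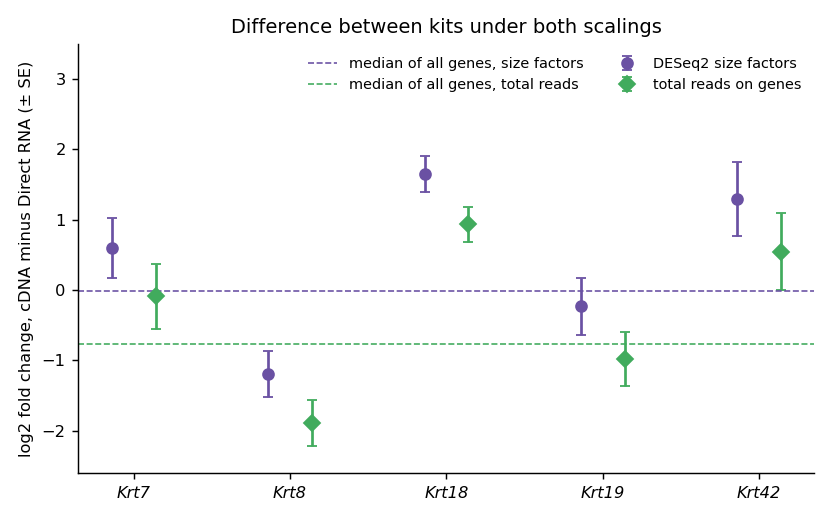
Log2 fold change between the platforms (cDNA minus Direct RNA, state as covariate, 4 libraries against 4) of the 5 keratin genes with bars of 1 SE, scaled by DESeq2 size factors (circles) or by total reads on genes (diamonds). Dashed lines are the medians of all genes tested, -0.02 and -0.77. Krt18 is above and Krt8 below the median under either scaling.

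Several annotated features of the genes differ and are given beside the platform values. Krt8 shares 32.2% of the 31-base words of its transcript with Krt8-ps, a processed pseudogene on chromosome 7 that is not among the genes counted here, and Krt18 shares 9.31% with the pseudogene Gm5200. Reads set aside for low mapping quality made up 20.4% to 25.0% of the alignments in Direct RNA libraries and 22.5% to 28.0% in cDNA libraries. Krt8 overlaps Gm36026 and Krt7 overlaps Gm671, both on the opposite strand. Direct RNA was counted by strand, and for cDNA the use of strand is not stated. Krt42 shares 3.70% of its words with Krt14 and 3.17% with Krt17, and Krt19 at most 0.453% with any gene. Their part in the platform differences was not tested.

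The change between states was not shown to differ between the platforms. The interaction test of DESeq2 called 2 genes of 17267 (0.0116%) and none of the 5 keratins, of which 0 had an unadjusted p under 0.05. The quasi-likelihood test of edgeR called none of the 5 either, with 1 (Krt19) at an unadjusted p of 0.0419 (adjusted p = 1.00). The change of Krt19 was 1.13 larger in cDNA on the unshrunken log2 scale, with a 95% interval from -0.41 to 2.68. That of Krt18 was 0.89 smaller (-0.89, interval -1.93 to 0.16). Differences of over 1 on the log2 scale are within both intervals, and so they are within those of Krt8 (-1.70 to 1.30), Krt7 (-2.31 to 2.05) and Krt42 (-4.07 to 3.55).

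Among all genes tested in Direct RNA, 9.54% were called higher and 7.67% lower at Day4, and in cDNA 8.69% and 9.24%. The remaining keratins of the files were scarce. Of the 47, 24 had no read in any library, 17 had between 1 and 10 reads in all, and 6 had more. Only Krt17 reached the mean of 5 normalized counts in Direct RNA, and 4 did in cDNA. Krt17, a stress-inducible type I keratin, lies next to Krt42 (chr11:100256217-100261029). It had 8 and 18 reads in Undiff Direct RNA and 0 and 0 at Day4, and 40 and 64 reads in Undiff cDNA and 2 and 0 at Day4. It was called lower on both platforms (log2 fold change -4.06, adjusted p = 0.0211, and -5.42, adjusted p = 6.46e-07). Krt15, a basal-cell type I keratin, lies next to Krt19 (chr11:100131758-100135928). It had no read in any Undiff library, 7 and 11 reads at Day4 in Direct RNA and 25 and 30 in cDNA, and was called higher in cDNA (log2 fold change 5.06, adjusted p = 0.00156), while in Direct RNA its mean of 4.74 normalized counts was below the minimum for a call. It was called there with total reads as the scaling (4.02, adjusted p = 0.0259). Krt17 had most of its reads in the same state as Krt42, and Krt15 in the same state as Krt19. Krt9, on the other side of Krt19, had only 5 reads in all. A link between neighbours was not tested.

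Over 5 lists around keratin filaments (other keratins, other intermediate filaments, junctions and plakins that anchor them, binding and turnover proteins, and epithelial transcription factors), 6 genes of 44 tested were called higher and 9 lower in Direct RNA, and 6 of 52 higher and 13 lower in cDNA. These are 13.6% and 20.5% in Direct RNA, against 9.54% and 7.67% of all genes, and 11.5% and 25.0% in cDNA, against 8.69% and 9.24%. Without each library in turn the Direct RNA counts were 3 to 4 higher and 2 to 7 lower, with 3 and 2 when Undiff replicate 2 was left out. For cDNA they were 2 to 4 higher and 4 to 6 lower, with 2 and 4 when Undiff replicate 2 was left out. The share of all genes called without each library is not given here, so the list counts of those fits have no background. With total reads as the scaling, 9 genes were higher and 10 lower in Direct RNA, against 8 and 10 in cDNA. Under that scaling the share of all cDNA calls that were higher went from 48.5% to 65.8%. Of 15 other intermediate filament genes 9 were tested on each platform, with medians of -0.68 and -0.65. Vim (vimentin, the mesenchymal filament) was called higher on both, from 154 ± 37.5 to 850 ± 30.4 CPM in Direct RNA and from 46.4 ± 14.9 to 396 ± 11.3 CPM in cDNA. Des (desmin of muscle) was called higher in Direct RNA only (2.05, adjusted p = 0.0221) and was at -0.82 in cDNA (adjusted p = 0.452). The interaction test put the difference between these changes at -3.01 (95% interval -4.67 to -1.36), which was not called by DESeq2 (adjusted p = 0.894) and was called by edgeR (adjusted p = 0.0387). The neuronal filament genes Nefh (-5.43, adjusted p = 0.000143, in Direct RNA) and Ina (-3.33, adjusted p = 0.0138, in cDNA) were called lower on one platform each. On the other platform Nefh was at -2.23 (adjusted p = 0.324) and Ina at -2.36 (adjusted p = 0.289), and with total reads as the scaling Ina was called lower in Direct RNA too (-2.67, adjusted p = 0.0261). The interaction test called neither gene with DESeq2 or edgeR (adjusted p = 1.00 for each), and the intervals of the difference were wide (0.23 to 8.56 for Nefh and -3.76 to 2.21 for Ina).

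Of 20 genes of desmosomes, hemidesmosomes and plakins, 2 of 13 tested were called higher and 1 lower in Direct RNA, and 1 of 12 higher and 5 lower in cDNA. Dsc2 (a desmosomal cadherin) was higher on both, from 0.551 ± 0.779 to 54.9 ± 22.1 CPM in Direct RNA and from 0.527 ± 0.745 to 12.0 ± 3.38 CPM in cDNA. Dsp (desmoplakin, which ties keratin to desmosomes) was higher in Direct RNA (2.48, adjusted p = 0.0147) and at 2.54 in cDNA (adjusted p = 0.266). Perp (a desmosomal membrane protein) was lower on both (-2.08 and -2.18, adjusted p = 0.0121 and 0.0252), the cDNA call being lost with total reads as the scaling (adjusted p = 0.0828). Pkp3 (plakophilin) and Itga6 (an integrin chain of hemidesmosomes) were lower in cDNA. There Pkp3 was at -3.21 (adjusted p = 0.00646) and Itga6 at -2.55 (adjusted p = 0.00743), and in Direct RNA they were at -2.68 and -1.74 without a call. The remaining genes of the list called lower in cDNA, named after their values were seen, were the plakins Plec and Eppk1, the latter at -4.54 (adjusted p = 0.00324) and with no read in Direct RNA.

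Of 14 genes of keratin binding and turnover, 0 of 11 were called higher and 2 lower in Direct RNA, and 1 of 13 higher and 2 lower in cDNA. Sfn (14-3-3 sigma) went from 238 ± 3.46 to 8.54 ± 7.09 CPM in Direct RNA and from 186 ± 108 to 6.29 ± 6.76 CPM in cDNA, and was called lower on both. Senp3 (a SUMO protease) was lower on both (-1.60 and -1.90), and Stub1 (a ubiquitin ligase) higher in cDNA (1.81, adjusted p = 0.0330) and at -0.06 in Direct RNA (adjusted p = 0.985). Of 25 epithelial transcription factors, 2 of 10 tested were higher and 4 lower in Direct RNA, and 2 of 14 higher and 4 lower in cDNA. Gata6, a factor of primitive endoderm, had no read in Undiff and 380 ± 67.0 CPM at Day4 in Direct RNA and 60.8 ± 19.5 CPM in cDNA. Jun, a subunit of AP-1, was higher on both (4.43 and 3.43). Klf4 and Klf5, which also serve pluripotency, were lower on both, Klf4 at -3.73 and -2.44 and Klf5 at -3.94 and -3.62, the cDNA call of Klf4 being lost with total reads as the scaling (adjusted p = 0.0796). Tfap2c, an AP-2 factor, was lower in Direct RNA (-3.78, adjusted p = 3.09e-05) and at -3.10 in cDNA (adjusted p = 0.107).

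Genes with a pattern like that of each keratin were ranked by Pearson's r of log2 CPM over the 8 libraries among 10426 genes, as a description; the libraries share platform and depth differences. Dpys (r = 0.994), Fgf17 (0.993) and Mup6 (0.992) were most like Krt42, and they had 0 to 2 reads in each Day4 library. Stx7 (0.985), Ube2j1 (0.983) and Kctd1 (0.979) were most like Krt19. Oaz2 (0.986), Ubap1 (0.986) and Itga9 (0.985) were most like Krt8, and Ccdc159 (0.980), Snx6 (0.973) and Knstrn (0.973) most like Krt18. Map2k4 (0.941), Slc38a9 (0.937) and Hnrnph2 (0.935) were most like Krt7. Krt18 was not among the genes most like its partner Krt8, with r = 0.203 and rank 6449 of 10425. When each platform was first centred on its own mean, r was 0.894 and the rank 763. Of Krt7, Krt8, Krt18 and Krt19, the last had the lowest r with Krt42 (-0.919).

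Marker genes of some other cell types moved with the states. Of all genes tested, 9.54% were called higher and 7.67% lower in Direct RNA, and 8.69% and 9.24% in cDNA. Summed over 10 ESC markers, the level was between 11715 and 13999 CPM in Undiff and between 131 and 545 at Day4 in Direct RNA, and between 21628 and 24825 and between 84.2 and 951 in cDNA. Of these, 10 were called lower in Direct RNA and 9 in cDNA, and only Fgf4 in Direct RNA was at 0 at Day4. Of 10 endoderm markers, 5 of 5 tested were called higher in Direct RNA and 4 of 6 in cDNA, with summed levels of 17.2 to 28.7 and 685 to 1058 CPM in Direct RNA and of 5.27 to 14.4 and 209 to 252 CPM in cDNA. Gata6, Afp and Ttr were at 0 in Undiff on both platforms, and none of the list was at 0 at Day4. Of 7 mesothelium markers, 3 were tested on each platform. Upk3b and Wt1 were called higher on both platforms, Msln was at 0 at Day4 on both, and the sums went from between 43.0 and 63.1 to between 418 and 702 CPM in Direct RNA and from between 8.43 and 9.10 to between 220.0 and 269 CPM in cDNA. Their part in the keratin values was not tested.

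Of 10 trophoblast markers, 1 had enough reads to be tested in Direct RNA and 3 in cDNA. None was called in Direct RNA and Ascl2 was called lower in cDNA, the sums overlapped between states on both platforms (24.7 to 40.8 CPM in Direct RNA, 19.7 to 58.9 CPM in cDNA), and Prl3d1 was at 0 in all Day4 libraries. Of 10 surface ectoderm markers, which include Krt14, Krt15, Perp and Sfn of the lists above, 3 of 4 tested were called lower in Direct RNA, and of 6 tested in cDNA 1, Krt15, was called higher and 2 lower. The sums were 479 to 537 CPM in Undiff and 109 to 119 CPM at Day4 in Direct RNA, and 193 to 434 CPM and 51.6 to 110 CPM in cDNA, with Krt5 at 0 in every library. Of 8 endothelium markers, 3 of 6 tested were called higher in Direct RNA, and of 5 tested in cDNA 2 were called higher and 1 lower, with sums of 98.1 to 178 and 261 to 321 CPM in Direct RNA and of 55.9 to 77.1 and 137 to 144 CPM in cDNA. Of 10 neural markers, 3 were tested in Direct RNA and 4 in cDNA, and on each platform 1 was called higher and 2 lower. Their sums were 631 and 81.3 to 145 CPM in Direct RNA and between 642 and 805 and between 634 and 641 CPM in cDNA.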

How the data were processed

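Poly(A) RNA of Undiff and Day4 R1 ESC cultures was sequenced with 2 ONT kits in 8 libraries. The deposited tables hold unnormalized read counts by gene symbol. The authors obtained them using htseq-count (HTSeq) on minimap2 alignments to mm10 and the iGenomes UCSC annotation, counting Direct RNA by strand. Rows that name no gene were left out of all tests and library sizes, and those held reads of low mapping quality (20.4% to 28.0% of the alignments), ambiguous reads (1.41% to 5.05%) and reads outside genes (9.75% to 15.8%). Groups and replicate numbers come from the labels.

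The 5 keratins and all gene lists were chosen with earlier results of these data known. Fits were made over all genes with DESeq2 1.42.0 in R 4.3.3, using the Wald test with shrunken fold changes and without Cook's cutoff and independent filtering, as in the study's methods. A gene was called when its adjusted p (Benjamini-Hochberg) was 0.05 or less, its log2 fold change 1 or more in either direction, and its mean normalized count 5 or more. Shares called refer to genes with that mean. States were compared for each platform with 2 libraries against 2. The platform test used all 8 libraries with state as covariate, and the interaction test used no shrinkage and the adjusted p alone. For the lists, up to 3 genes with the highest and up to 3 with the lowest mean log2 fold change of both platforms are named among genes called on at least one (others are said to be named after their values were seen), and for each keratin the 3 genes with the highest r (edgeR 4.0.16 log2 CPM, prior count 2). Replicates of a group differed beyond sampling noise (chi-square per degree of freedom 2.68 to 14.9 over genes with at least 20 reads). The fits were tested on simulated data. Wilson and exact intervals (95%) were made with scipy. Transcripts and coordinates are those of GENCODE vM21 on GRCm38, which holds 23376 of the 24421 symbols, and promoters those of RefSeq. Alternatives were edgeR with TMM, a filter of at least 10 reads, no shrinkage, a replicate block, each library left out, single states and, chosen after seeing the data, scaling by total reads, crossed Day4 numbers and coding length. Short-read and isoform data were not analysed here.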

Additional observations from a re-analysis of the deposited data

How the results depend on the processing

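Depth limits the values of scarce members: Krt7 had 18 and 26 reads in the 2 Direct RNA groups. Of the recomputed state changes of the 5 keratins, 80 moved by less than 1 SE, 9 moved by more and 1 reversed (Krt7 in cDNA). Krt42 in Direct RNA (-6.24) was at -8.92 with edgeR and TMM and at -8.05 without shrinkage, and leaving out single libraries gave -6.68 to -4.73 (in cDNA -7.87 to -6.58). Leaving out single libraries gave 1.95 to 2.78 for Krt19 in Direct RNA, and in cDNA -0.11 to 0.93 for Krt7, 0.65 to 1.87 for Krt8 and 2.69 to 4.01 for Krt19. The 6 higher and 9 lower list genes in Direct RNA became 11 and 17 with edgeR, and 3 to 4 and 2 to 7 without single libraries. The 6 higher and 13 lower in cDNA became 10 and 21 with edgeR, and 2 to 4 and 4 to 6 without single libraries. Of the 3 platform calls of the keratins, 1 (Krt18) was made in each state alone, and with total reads 1 (Krt8) over all libraries, 2 (Krt8 and Krt18) in Undiff alone and 1 (Krt8) in Day4 alone. The cause was not tested.

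The replicate numbers of the states may not pair cultures. Replicate differences correlated at 0.21 between states in Direct RNA and at 0.50 in cDNA, and between platforms at 0.12 in Undiff and -0.42 at Day4. With the number as a replicate block, Krt42 in Direct RNA was at -1.47 in the shrunken fit. Its reads there were 18 and 128 in Undiff and 0 in both Day4 libraries, however the libraries are paired. With the block, the list genes called higher were 3 in Direct RNA and 3 in cDNA, and those called lower 5 and 9. Calls over all genes were 843 in Direct RNA (1660 without the block) and 1375 in cDNA (1842 without it). The same 3 keratins were called between platforms. With the Day4 numbers crossed, all platform calls were 5081, against 5049 with the block as numbered and 5344 without it.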

Other observations

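Krt10, a type I keratin of differentiating epidermis, had the most reads of the keratins outside the 5 described, and is named here after its values were seen. It had 2, 2, 2 and 13 reads in the Direct RNA libraries (Undiff replicates 1 and 2, then Day4) and 32, 39, 80 and 141 reads in the cDNA libraries in the same order. Its log2 fold change between platforms (cDNA minus Direct RNA, DESeq2) was 3.06 (adjusted p = 7.94e-09), while its change between states did not pass the test on either platform (adjusted p = 0.684 in Direct RNA and 0.341 in cDNA).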
